A study of Mus musculus with 13 samples.

Results

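The genes described here are 10 that mark neurons and neural progenitors, and they were taken as a panel by name. Stmn2, Mapt, Map2, Nefm and Gap43 encode proteins of the neuronal cytoskeleton and growth cone. Cdh2, Nes, Pax6, Sox3 and Sox11 are genes of neural progenitors. A probe was taken where its annotation gave exactly 1 gene symbol and that symbol was one of the 10. This gave 10 of the 9669 genes and 15 of the 20205 probes in the table: 3 each for Stmn2 and Mapt, 2 for Map2 and 1 for each of the other genes. The 15 probes held 188 values over the 13 arrays, and 7 values were missing.

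In neural development, progenitors divide at the lining of the neural tube, express Sox transcription factors, Pax6 and the intermediate filament protein nestin, and adhere through N-cadherin. As they become neurons they leave the cell cycle and build axons and dendrites from microtubules, neurofilaments and the proteins that bind them. Pluripotent cells of the early embryo can be taken along the same path in culture, and genes of this kind are then used to follow it.

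Each array set an RNA source named NT1 against a source named TBV, in 2 dyes. Per the series title, Sall4 is mutated on both alleles (-/-), and the title gives this next to NT1. Sall4 is a zinc finger protein that acts in early embryonic cells. A line of mouse embryonic stem cells goes by the name TBV2. The labels state no cell type, tissue, age, treatment or number of clones for NT1 or TBV, and the number after p in a source name was read as the passage. The groups were NT1p14 with TBVp13 (5 arrays), NT1p12 with TBVp12 (4 arrays), NT1 1 with TBV2 (2 arrays) and NT1p12 with TBVp13 (2 arrays). NT1 carried Cy5 on 7 arrays and Cy3 on the other 6. NT1p12 with TBVp13 uses an RNA source from each of the first pairs and was kept out of the mean, so the comparison over pairs had n = 3.

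Values below are log2 ratios of NT1 over TBV, so that a value above 0 means more signal from NT1. A pair value is the mean of the arrays with NT1 in Cy5 and of the arrays with TBV in Cy5, each orientation weighted alike. The direction rests on the deposited values being Cy5 over Cy3, and this is not given in the sources used here. The table gives ratios only and no intensities, so neither the level of a neural gene nor the presence of neural cells could be checked in NT1 or TBV. In such RNA from whole cultures, fewer cells of a type and less RNA per cell cannot be told apart.

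The pairs did not run alike. The values of NT1p14 with TBVp13 had a correlation of -0.50 with those of NT1p12 with TBVp12 over 16317 probes, and single arrays of these pairs in the same dye orientation correlated between -0.36 and 0.24. Over the 15 panel probes the correlation of these pairs was 0.09. With NT1 1 with TBV2, NT1p14 with TBVp13 had 0.13 over all probes and 0.64 over the panel. NT1p12 with TBVp12 had -0.04 and 0.45 by the same measures. The direction of NT1p14 with TBVp13 against NT1p12 with TBVp12 is therefore not settled. Results that set them against each other are also given with NT1p14 with TBVp13 turned in sign. Arrays 4 and 5 of NT1p14 with TBVp13 had the widest spread over probes (SD 1.00 and 1.14, against 0.34 to 0.81 on the other 11 arrays). Values per array numbered from 14314 to 18381. Whole numbers made up 19.3% of all values (2.4% to 40.4% by array) and 60 of the 188 values of the panel. How they arose is not given, so a 0 or a -1 on many arrays may stand for a range of ratios.

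**Figure D1:**
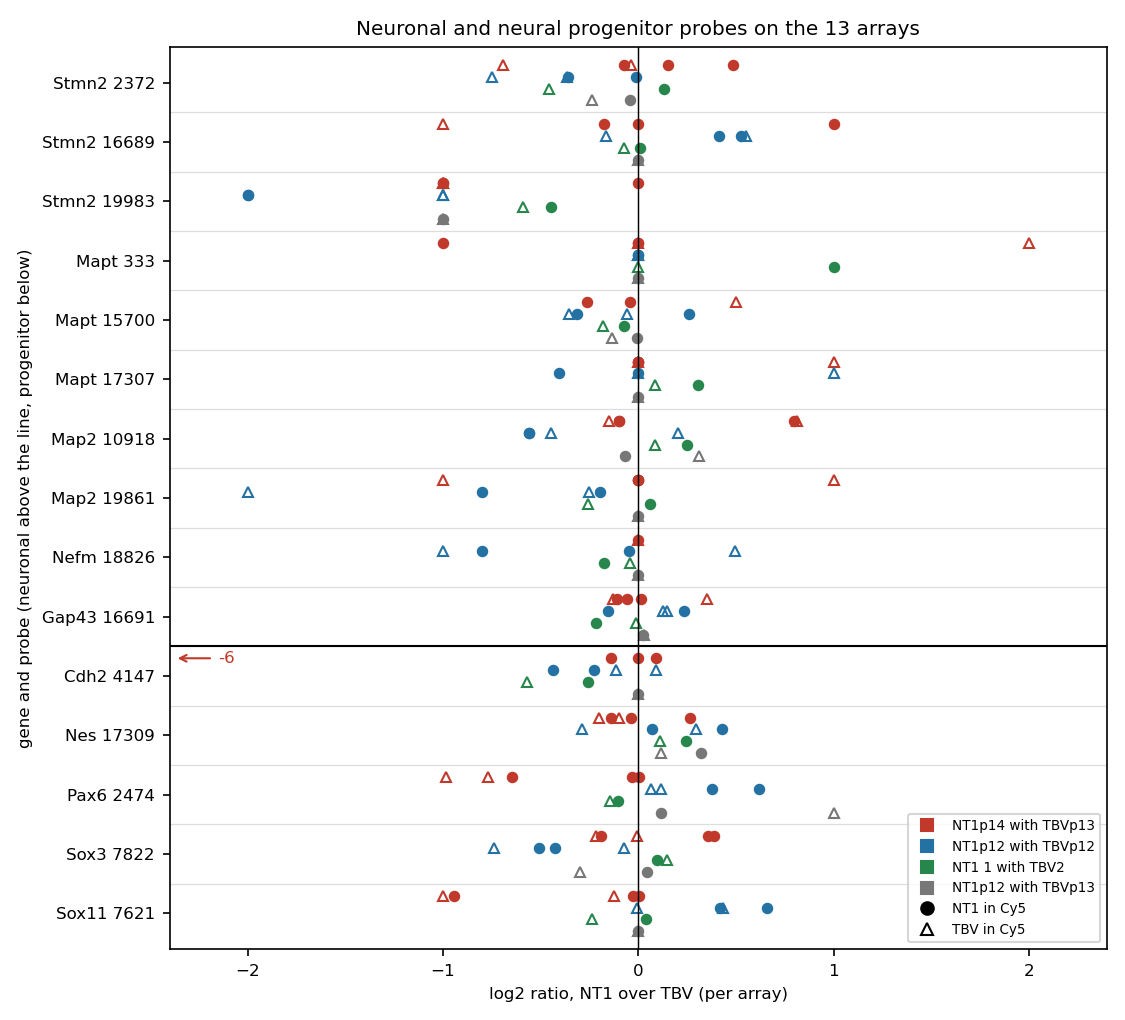
Log2 ratio of NT1 over TBV (horizontal axis) for the 15 probes (rows) on each of the 13 arrays. Colour gives the source pair, filled circles are arrays with NT1 in Cy5 and open triangles arrays with TBV in Cy5. Stmn2 probe 19983 has no value above 0, and the Cdh2 value of -6 is drawn at the left edge with an arrow.

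The first comparison asked whether the panel differed between NT1 and TBV over the 3 independent pairs. None of the 15 probes passed the test (0 of 15, against 0% of the 15973 probes tested, limma, adjusted p = 1.00 for each). With 3 pairs this does not show that the genes were alike in NT1 and TBV. At an unadjusted p under 0.05 there was 1 probe of the 15, Stmn2 probe 19983, and 164 of all probes. The median of the 15 means was -0.0543, against -0.000543 over all probes. The labels call the sources different passages and name no separate cultures, so these p-values measure the spread between the RNA preparations compared. The number of arrays limits the precision.

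Stmn2 encodes stathmin 2, a neuronal protein of growth cones that destabilises microtubules, and its probe 19983 lay below 0 on more arrays than any other probe of the panel. On probe 19983 the 5 arrays of NT1p14 with TBVp13 read -1, -1, -1, 0 and -1. The 4 arrays of NT1p12 with TBVp12 read -2, -2, -1 and -1. The arrays of NT1 1 with TBV2 read -0.45 and -0.59, and both arrays of NT1p12 with TBVp13 read -1. The probe thus lay below 0 on 12 of 13 arrays and at 0 on 1, and 11 of the 13 values were whole numbers.

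The mean of Stmn2 probe 19983 over the 3 pairs was -0.95 ± 0.50 (SD, n = 3), from -0.83 for NT1p14 with TBVp13, -1.50 for NT1p12 with TBVp12 and -0.52 for NT1 1 with TBV2. Its unadjusted p was 0.0060 in limma, and after adjustment it did not pass. With the 13 arrays taken as independent the adjusted p was 0.027 in limma, and with the source pair as a random block it was 0.18. With the signs of NT1p12 with TBVp12 turned the mean was 0.05, and this was the only one of 29 settings that changed its sign. With NT1p14 with TBVp13 turned instead, the mean stayed below 0.

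The other Stmn2 probes gave smaller values. Probe 2372 had pair values of -0.09, -0.37 and -0.16, in the same order of pairs, and a mean of -0.21 ± 0.15 (SD, n = 3). It lay below 0 on 10 of 13 arrays. Probe 16689, annotated to expressed sequence tags where the other probes are annotated to the mRNA, had -0.36, 0.33 and -0.03 and a mean of -0.02 ± 0.35 (SD, n = 3). Probe 19983 was below probe 2372 on 13 of 13 arrays, although both are annotated to the mRNA, so the size of the Stmn2 ratio is uncertain. Averaged over its 3 probes, Stmn2 had -0.43, -0.51 and -0.24 in the 3 pairs.

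Mapt encodes tau, which binds and stabilises axonal microtubules, and its probes lay near 0. Probe 17307 had pair values of 0.25 for NT1p14 with TBVp13, 0.15 for NT1p12 with TBVp12 and 0.19 for NT1 1 with TBV2, a mean of 0.20 ± 0.05 (SD, n = 3). This narrow spread came from few arrays, since 8 of its 13 values were 0 and its 2 values of 1 lay on array 5 of NT1p14 with TBVp13 and array 3 of NT1p12 with TBVp12. Probe 333 was 0 on 10 of 13 arrays, and its mean was 0.28 ± 0.26 (SD, n = 3). Probe 15700 was the only one of the 3 without whole numbers, and its mean was -0.02 ± 0.17 (SD, n = 3). None of these passed the test.

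Map2 encodes a microtubule-associated protein of dendrites, and its probes did not share a pattern. Probe 10918 had 0.27 for NT1p14 with TBVp13, -0.34 for NT1p12 with TBVp12 and 0.17 for NT1 1 with TBV2. On arrays 4 and 5 of NT1p14 with TBVp13 it read 0.80 and 0.82, against -0.15 to -0.10 on the other 3 arrays of that pair. Probe 19861 had 0, -0.81 and -0.10, and its arrays ran over -2 to 1, with 8 whole numbers among 13 values. Their means were 0.03 ± 0.33 and -0.30 ± 0.44 (SD, n = 3 each).

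Nefm and Gap43 stayed close to 0 in the mean. Nefm, the medium neurofilament subunit, had 10 values, 0 for NT1p14 with TBVp13, -0.34 for NT1p12 with TBVp12 and -0.11 for NT1 1 with TBV2, a mean of -0.15 ± 0.17 (SD, n = 3). In NT1p14 with TBVp13 only 2 of 5 arrays had a Nefm value, and both read 0. Gap43, a membrane protein of growing axon tips, had 0.03, 0.09 and -0.11, a mean of 0.00 ± 0.10 (SD, n = 3). All 13 Gap43 values had decimals and ran from -0.21 to 0.35, a narrower range than the probes with whole numbers had.

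Among the progenitor genes, Cdh2 had the mean of largest size, and it rested on 1 array. Cdh2 encodes N-cadherin, the adhesion protein of the neural tube. Its values in NT1p14 with TBVp13 were 0.09, -0.14, -6 and 0, with the fifth array missing. In NT1p12 with TBVp12 they were -0.44, -0.23, 0.09 and -0.11, in NT1 1 with TBV2 -0.26 and -0.57, and in NT1p12 with TBVp13 both were 0. The 3-pair mean was -1.20 ± 1.57 (SD, n = 3), and without NT1p14 with TBVp13 it was -0.29. Without the array that read -6, the fitted Cdh2 ratio of NT1p14 with TBVp13 was 0.02, against -1.91 ± 0.78 (SE, limma, adjusted p = 0.116) with it.

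Nes, which encodes the progenitor filament protein nestin, had -0.06 for NT1p14 with TBVp13, 0.13 for NT1p12 with TBVp12 and 0.18 for NT1 1 with TBV2. Its mean was 0.08 ± 0.13 (SD, n = 3), and 8 of 13 arrays lay above 0. Sox3, a SoxB1 factor that keeps progenitors undifferentiated, had 0.04, -0.44 and 0.12 in the same pairs and a mean of -0.09 ± 0.30 (SD, n = 3). Pax6 and Sox11 had means of -0.13 ± 0.42 and -0.05 ± 0.41 (SD, n = 3 each), with pair values on both sides of 0.

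**Figure D2:**
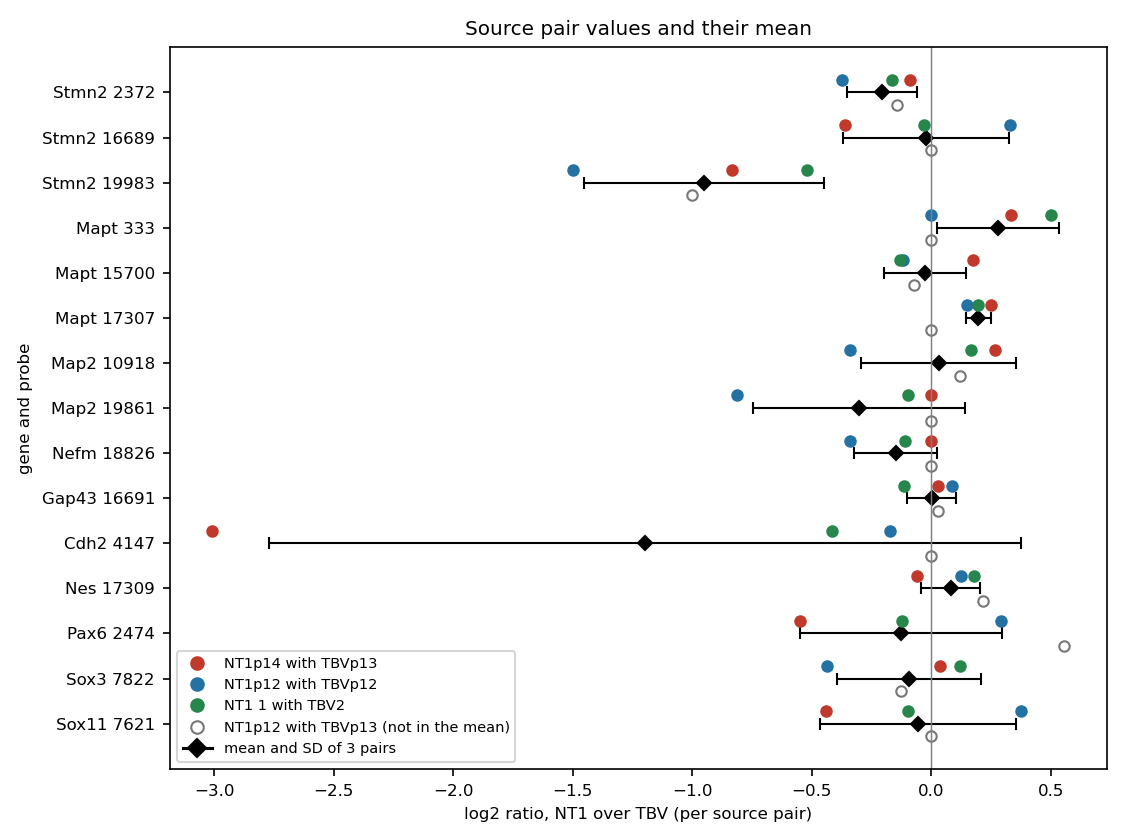
Log2 ratio of NT1 over TBV (horizontal axis) by source pair for the 15 probes (rows). Coloured points are the 3 independent pairs, black diamonds and bars their mean and SD, and open circles NT1p12 with TBVp13, which is not in the mean. Stmn2 probe 19983 lies left of 0 in all pairs at -1.50 to -0.52, and the Cdh2 mean of -1.20 follows the point at -3.01.

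Counted by sign alone, 3 of 15 probes were below 0 in all 3 pairs (20%), against 5.33% of all probes measured. These were Stmn2 probes 2372 and 19983, which share a target, and Cdh2, whose fitted ratio in NT1p14 with TBVp13 was 0.02 without its array at -6. Above 0 in all 3 pairs was 1 of 15 (6.67%), Mapt probe 17307, against 9.05% of all probes. With NT1p14 with TBVp13 turned in sign, 1 of 15 was below 0 in all 3 pairs, Mapt probe 15700, against 14.3% of all probes, and 1 of 15 was above, Nes, against 16.1%. The counts by sign thus changed with the direction taken for that pair. Signs of 0 stand for neither side, and they are frequent among whole numbers.

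The next comparison took each pair by itself and asked whether its NT1 and TBV preparations differed beyond the spread between arrays, with a term for the dye. These are repeats of the same RNA sources, so the test compares preparations and not cell lines. In NT1p14 with TBVp13, 1 of 15 probes passed, against 10.7% of all probes: Stmn2 probe 19983 was lower in NT1, at -0.78 ± 0.19 (SE, limma, adjusted p = 0.038). Pax6 at -0.51 ± 0.17 and Sox11 at -0.44 ± 0.16 did not pass (SE, limma, adjusted p = 0.066 and 0.087). Without arrays 4 and 5 of this pair 0 of 15 probes and 0 of 17557 in all passed. The value of Stmn2 probe 19983 was then -0.94 ± 0.18 (SE, limma, adjusted p = 0.20). The ratio of this probe was then no smaller in size and its SE no larger than with all arrays. Array 4 was the only array where the probe read 0, and the arrays of this pair that were kept all read -1. The call was lost together with those of all 1931 probes that had passed in this pair. Why it was lost was not tested.

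In NT1p12 with TBVp12, 1 of 15 probes passed, against 0.259% of all probes, and it was again Stmn2 probe 19983, lower in NT1 at -1.50 ± 0.22 (SE, limma, adjusted p = 0.040). All 47 probes that passed in this pair were lower in NT1. Sox3 at -0.44 ± 0.14, Stmn2 probe 2372 at -0.37 ± 0.14 and Map2 probe 19861 at -0.81 ± 0.32 did not pass (SE, limma, adjusted p = 0.178, 0.232 and 0.257). In NT1 1 with TBV2, 0 of 15 passed, against 0.0222% of all probes, and 0 of 15 had an unadjusted p under 0.05. In NT1p12 with TBVp13, 0 of 15 passed, against 0.0110%, and 1 of 15 had an unadjusted p under 0.05, Stmn2 probe 19983 at -1 ± 0.31 (SE).

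The Stmn2 calls sat close to the threshold. When each of the 13 arrays was left out in turn, Stmn2 probe 19983 passed in 4 of 13 fits for NT1p14 with TBVp13 (limma, adjusted p 0.039 to 0.148) and in 4 of 13 for NT1p12 with TBVp12 (0.0049 to 0.250). Its ratio was below 0 in every one of these fits. It ran from -1 to -0.69 in the pair with passage 14 and from -1.66 to -1.34 in the pair with passage 12. No array had a value above 0 for this probe, so the constant sign says little about stability. Leaving out an array of another pair left the ratio in the pair with passage 12 at -1.50.

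The last comparison set the ratio in NT1p14 with TBVp13 against that in NT1p12 with TBVp12. As read, Pax6 and Sox11 passed (2 of 15 probes, against 19.1% of all probes, so a share no higher than that of all probes). Pax6 is a paired homeodomain factor of the forebrain, eye and spinal cord, and Sox11 a SoxC factor of late progenitors and young neurons. For Pax6, arrays of NT1p14 with TBVp13 read 0.00, -0.03, -0.77, -0.65 and -0.98, against 0.62, 0.38, 0.11 and 0.06 in NT1p12 with TBVp12. The difference was -0.80 ± 0.25 (SE, limma, adjusted p = 0.048).

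For Sox11, arrays of NT1p14 with TBVp13 read -0.02, 0.00, -0.12, -0.94 and -1, against 0.42, 0.66, -0.01 and 0.43 in NT1p12 with TBVp12. The groups overlapped by 1 array, and the difference was -0.82 ± 0.24 (SE, limma, adjusted p = 0.042). NT1 1 with TBV2 read -0.10 and -0.14 for Pax6 and 0.04 and -0.23 for Sox11, between the pairs compared. NT1p12 with TBVp13, which shares 1 source with each of the pairs compared, read 0.11 and 1 for Pax6, a mean of 0.56 and above both pairs, and 0 on both arrays for Sox11.

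The size of the difference fell without arrays 4 and 5 of NT1p14 with TBVp13, more for Sox11 than for Pax6. Without both arrays, the difference was -0.59 ± 0.27 for Pax6 and -0.46 ± 0.14 for Sox11 (SE, limma, adjusted p = 0.19 and 0.095). In all, 97 probes passed without them, against 3423 with them. Leaving out single arrays kept the Pax6 difference between -0.90 and -0.69 and the Sox11 difference between -0.96 and -0.66. Pax6 passed in 3 and Sox11 in 4 of these 13 fits. With NT1p14 with TBVp13 turned in sign, neither passed, at 0.22 for Pax6 and 0.07 for Sox11 (limma, adjusted p = 0.81 and 0.94).

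The turned signs left 1 of 15 probes past the threshold, against 0.245% of all probes. It was Stmn2 probe 19983, whose pair values lie on 1 side of 0 in both pairs as read, with a difference of 2.28 ± 0.29 (SE, limma, adjusted p = 0.020). As read, its difference was 0.72 ± 0.29 and did not pass (SE, limma, adjusted p = 0.101). Sox3 had 0.49 ± 0.18 and Map2 probe 10918 had 0.62 ± 0.26, and neither passed (SE, limma, adjusted p = 0.080 and 0.114).

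**Figure D3:**
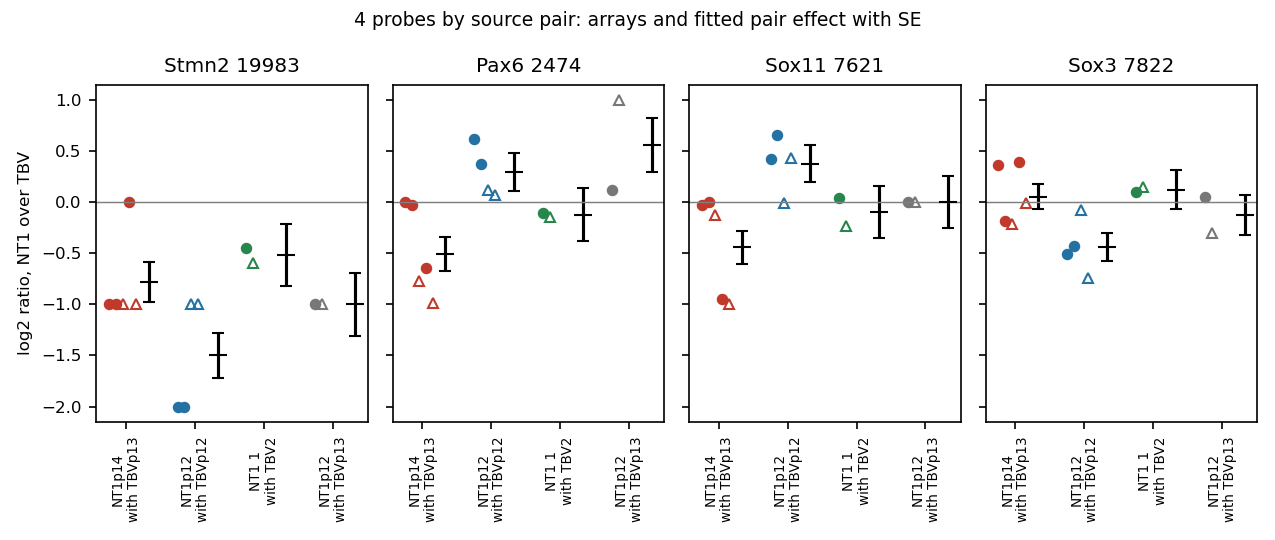
Log2 ratio of NT1 over TBV (vertical axis) on each array, by source pair, for Stmn2 probe 19983, Pax6, Sox11 and Sox3. Filled circles are arrays with NT1 in Cy5, open triangles arrays with TBV in Cy5, and black bars the fitted pair value with its SE. Pax6 and Sox11 have values down to -0.98 and -1 in NT1p14 with TBVp13 and none under -0.01 in NT1p12 with TBVp12, while Stmn2 lies at or below 0 in every pair.

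The promoter sequences of Pax6 and Sox11 are shown because these are the genes of the panel that passed in the comparison of the pairs as read, a call that turned signs or leaving out arrays 4 and 5 ended. They are the 250 bases before the start site, 5′ to 3′ on the strand of the gene, from RefSeq on the mouse build GRCm38.p6. Pax6 has a pair of start sites in that table, at chr2:105668646-105668895 and chr2:105682213-105682462 on the plus strand, and Sox11 lies at chr12:27342719-27342968 on the minus strand. Capitals mark an E-box, CAGCTG, a motif bound by neural basic helix-loop-helix factors.
Pax6, first start: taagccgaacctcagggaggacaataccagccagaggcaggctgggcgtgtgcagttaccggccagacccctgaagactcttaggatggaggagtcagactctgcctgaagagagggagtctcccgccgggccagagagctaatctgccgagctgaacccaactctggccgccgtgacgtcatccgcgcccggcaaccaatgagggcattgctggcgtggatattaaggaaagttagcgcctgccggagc
Pax6, second start: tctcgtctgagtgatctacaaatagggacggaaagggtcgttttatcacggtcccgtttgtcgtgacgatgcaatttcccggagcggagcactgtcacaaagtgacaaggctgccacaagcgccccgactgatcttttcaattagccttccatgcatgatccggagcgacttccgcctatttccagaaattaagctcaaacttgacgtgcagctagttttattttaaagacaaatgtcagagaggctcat
Sox11: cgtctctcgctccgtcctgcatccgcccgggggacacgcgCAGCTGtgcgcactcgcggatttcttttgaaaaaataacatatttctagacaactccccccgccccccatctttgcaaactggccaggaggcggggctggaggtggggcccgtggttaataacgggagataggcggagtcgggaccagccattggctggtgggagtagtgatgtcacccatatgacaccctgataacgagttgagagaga

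Of the 10 genes, 4 had entries in the promoter table (Map2, Nes, Pax6 and Sox11), with 5 promoters. The E-box CAGCTG stood in 1 of the 5, that of Sox11, 210 bases before the start site, and in 13.0% of 32851 mouse promoter windows of the same length. The octamer ATGCAAAT stood in 0 of 5 and in 1.6% of all, and the Sox motif CATTGTT in 0 of 5 and in 3.29% of all, each searched on both strands. The Sox11 window held 58.0% G and C and the Pax6 windows 60.8% and 47.6%, against a median of 52.4%. These matches describe the letters of the windows and were not tested against binding.

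The dye effect, Cy5 over Cy3 whatever the source, was read from the same fits. None of the 15 probes passed (0 of 15, against 2.61% of all probes). By unadjusted p under 0.05 there was 1, Stmn2 probe 2372, at 0.22 ± 0.08 for Cy5 over Cy3 (SE, limma, adjusted p = 0.114). Its mean over the 3 independent pairs was 0.04 from arrays with NT1 in Cy5 alone and -0.46 from arrays with TBV in Cy5 alone. Stmn2 probe 19983 had -1.04 and -0.86 by the same measure.

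A wider list of 177 neural genes showed how far the panel stood for others, and 76 of them were measured in all 3 pairs. Of these, 8 were above 0 and 3 below 0 in all 3 pairs, and 0 probes passed in the 3-pair test. Over all 7976 genes 8.75% were above 0 in all 3 pairs and 5.82% below. With NT1p14 with TBVp13 turned in sign, 7 of the 76 were above and 11 below, against 13.7% and 16.5% of all genes. The panel had a median of the 3-pair mean of -0.14 for its 5 neuronal genes and -0.09 for its 5 progenitor genes. The wider neural lists had medians of the 3-pair mean near 0: 0.02 for 32 genes of the cytoskeleton and growth cone, 0.03 for 24 neuronal and synaptic genes and 0.01 for 20 progenitor genes.

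The genes of these lists with 1 sign in all pairs and the largest means were as follows. On the side above 0 were Pvalb, a calcium-binding protein of interneurons, at 0.60 ± 0.48, Nsg1, an endosomal protein of neurons, at 0.36 ± 0.28, and Vamp2, a synaptic vesicle protein, at 0.12 ± 0.10. Notch3, a receptor that keeps progenitors dividing, had 0.43 ± 0.26 and the cadherin Cdh11 0.22 ± 0.17. The microtubule protein Map4 and the growth cone protein Dpysl5 had 0.10 ± 0.09 and 0.08 ± 0.06. Below 0 were the surface protein Thy1 at -0.23 ± 0.05, which the fibroblast list also holds, and the vesicle proteins Syn1 at -0.15 ± 0.15 and Syt1 at -0.03 ± 0.01 (SD, n = 3 pairs for each of these genes). None passed the 3-pair test.

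Within NT1p14 with TBVp13 some probes of the neural lists passed, as did 10.7% of all probes (976 higher and 955 lower in NT1). The directions hold for the pair as read and reverse if its signs are turned. Of 42 probes of the cytoskeleton list, 5 rose and 1 fell, of 37 neuronal and synaptic probes 5 rose and 0 fell, and of 24 progenitor probes 2 rose and 2 fell. Examples, chosen after their values were seen, were the growth cone protein Marcks at 1.03 ± 0.19, the glutamate receptor Gria1 at 1.03 ± 0.23 and the synaptic vesicle protein Syp at 1.00 ± 0.22 (SE, limma, adjusted p = 0.027, 0.034 and 0.033). Stmn4, a relative of Stmn2, fell at -0.57 ± 0.14 and the forebrain factor Emx1 at -0.55 ± 0.14 (SE, limma, adjusted p = 0.038 and 0.045). Without arrays 4 and 5 of that pair none of these calls was left. Neither NT1p12 with TBVp12 nor NT1 1 with TBV2 had a probe of these lists that passed (0 in each).

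Markers of other cell types moved in the same pair. In NT1p14 with TBVp13, 7 of 38 fibroblast probes rose and 0 fell, where 10.7% of all probes passed (976 higher and 955 lower). The list's median was 0.30 in that pair, against -0.20 for NT1p12 with TBVp12 and -0.25 for NT1 1 with TBV2. Fibroblast genes with a value below 0 in NT1p14 with TBVp13 were Dcn, Fap, Thy1, Tpm2, Lox and Col6a1, from -0.45 to -0.07. The fibroblast markers Acta2 and Col3a1 rose in that pair at 1.19 ± 0.21 and 0.90 ± 0.11 (SE, limma, adjusted p = 0.026 and 0.014). Vim, which both the progenitor and the fibroblast list hold, rose on probe 5093 at 0.98 ± 0.24 (SE, limma, adjusted p = 0.037). Its other probe, 19405, did not pass in that pair. These calls too were lost without arrays 4 and 5. The part of fibroblast RNA in the neural values was not tested. The 7 glia genes and the 4 neural crest genes measured had medians of 0.04 and -0.15 in the 3-pair mean, and the crest factor Snai2 had -0.20 ± 0.17 (SD, n = 3). Among 9 muscle genes Tnnc1 and Tnnt2 had 0.12 and 0.11 and Des -0.10.

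Of 17 pluripotency genes measured, 7 were below 0 in all 3 pairs (41.2%) and 1 above (5.88%), against 5.82% and 8.75% of all genes, with a median of -0.20. With NT1p14 with TBVp13 turned in sign, 5 were below and 0 above, against 16.5% and 13.7% of all genes. In the 3-pair test 0 of 18 pluripotency probes passed. The 3-pair means were -0.78 ± 0.89 for Zfp42, -0.59 ± 0.38 for Pou5f1 (Oct4), -0.48 ± 0.17 for Fgf4 and 0.89 ± 0.35 for Dnmt3l (SD, n = 3 each). The Sall4 probe had 0.07, -0.59 and -0.32 in the 3 pairs, a mean of -0.28 ± 0.33 (SD, n = 3). The position of the probe relative to the mutation is not given, so the labels could not be checked with it. In NT1p12 with TBVp12, 4 of 19 pluripotency probes fell and 0 rose, against 0.259% of all probes that passed. All 47 probes that passed in that pair were lower in NT1. Sall4 was 1 of the 4, at -0.59 ± 0.10 (SE, limma, adjusted p = 0.045). In NT1p14 with TBVp13 as read, 2 of 19 rose and 3 fell, where 10.7% of all probes passed. Without arrays 4 and 5 no probe passed in NT1p14 with TBVp13. For its difference from NT1p12 with TBVp12, 7 of 19 were higher and 0 lower, where 19.1% of all probes passed.

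**Figure D4:**
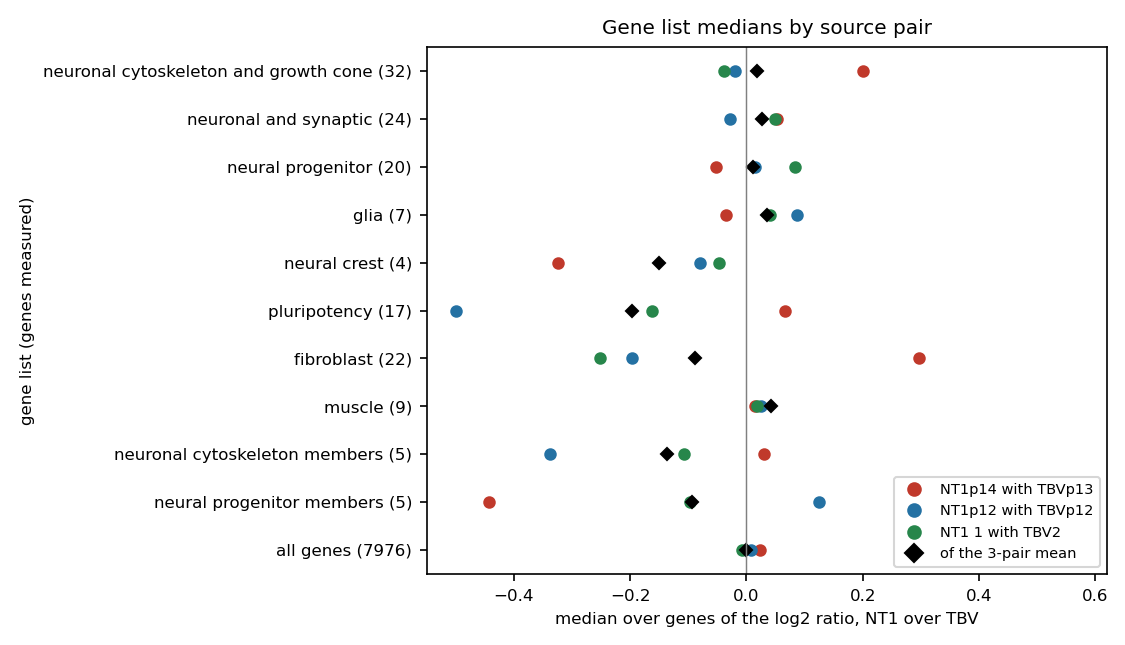
Median log2 ratio of NT1 over TBV (horizontal axis) over the genes of each list (rows, number of genes measured in brackets). Coloured points are the 3 independent source pairs and black diamonds the median of the 3-pair mean. The wider neural lists (cytoskeleton and growth cone, neuronal and synaptic, progenitor) lie between -0.05 and 0.20. The panel's 5 neuronal genes lie between -0.34 and 0.03 and its 5 progenitor genes between -0.44 and 0.13. The fibroblast list lies between -0.25 and 0.30 and the pluripotency list between -0.50 and 0.07.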

How the data were processed

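RNA was labelled in Cy5 and Cy3 and hybridised to 13 two-colour arrays. The deposited table of the authors holds 1 value per probe and array, read as a log2 ratio of Cy5 over Cy3. Its log base, numerator, normalisation and the loss of decimals are not given in the sources used here, and 437 probes had no value. Of the probes, 11723 had 1 gene symbol in the platform annotation, 806 had several and 7676 had none.

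Each array was centred on its median and turned to NT1 over TBV. A pair value is the mean of both dye orientations, weighted alike, or the mean of the turned arrays where leaving out arrays leaves 1 orientation. The 15973 probes measured in the 3 independent pairs were tested against 0, two-sided, in limma 3.58.1 (lmFit, eBayes; R 4.3.3), with Benjamini-Hochberg adjustment over all probes and a threshold of 0.05. Pair values, their difference and the dye effect came from a second fit to 13 arrays with 1 effect per pair and a dye term, in which the pairs share 1 estimate of spread. It left out no sample, and the scripts were tested on simulated data. Promoters came from RefSeq (GRCm38.p6), and figures were made in Python 3.11.15 (matplotlib 3.10.9).

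The members, lists and tests were chosen with earlier results of these data known. Named were every member probe, from each list at most the 3 genes of largest mean in each direction with 1 sign in all 3 pairs, and Pou5f1 and Sall4. Other genes named (Marcks, Gria1, Syp, Stmn4, Emx1, Acta2, Col3a1 and Vim) were chosen after their values were seen, from the calls in 1 pair. Dcn, Fap, Tpm2, Lox and Col6a1 were named, with Thy1, as the fibroblast genes below 0 in that pair. Alternatives covered centring, scaling, rounding, missing values, moderation, dye orientation, replicate unit, turned signs and left-out arrays or pairs.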

Additional observations from a re-analysis of the deposited data

Results flagged for a closer look

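In groups of 4 or 5 arrays of a pair, 4 of 28 groups had 1 array far from the others, where chance gives about 1 in 20 for values spread normally. For Stmn2 and Mapt the other arrays held the same whole number, so that rate does not apply to them. Stmn2 probe 19983 read 0 on array 4 of NT1p14 with TBVp13, where the other arrays read -1. Mapt probe 17307 read 1 on array 5 of that pair, where the others read 0. Cdh2 read -6 on array 3 of that pair, where the others lay between -0.14 and 0.09. Map2 probe 10918 read 0.20 on array 3 of NT1p12 with TBVp12, where the others lay between -0.56 and -0.44.

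NT1p14 with TBVp13 differed in its ratio from NT1p12 with TBVp12 for Pax6, by -0.80 on the log2 scale, and for Sox11, by -0.82, each tested as a difference of pair values in limma. These were 2 of 15 panel probes, where 19.1% of all probes passed the same test. Neither difference passed with arrays 4 and 5 of NT1p14 with TBVp13 left out. With that pair turned in sign neither passed, at 0.22 for Pax6 and 0.07 for Sox11 (limma, adjusted p = 0.81 and 0.94).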

How the results depend on the processing

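Over the 3 pairs, 0 member probes passed under all alternatives but 1: with 13 arrays taken as independent 1 passed, Stmn2 probe 19983. Its mean stayed between -1.17 and -0.68 where no signs were turned. With each array left out in turn, 0 to 2 probes passed for the difference of NT1p14 with TBVp13 from NT1p12 with TBVp12, 0 to 2 in NT1p14 with TBVp13 and 0 to 1 in NT1p12 with TBVp12. With arrays scaled to 1 median absolute deviation 0, 0 and 0 passed in these comparisons and 3 in NT1p12 with TBVp13. With values rounded to whole numbers, and with no moderation of the variance, 0, 0 and 0 passed. With probes present on all 13 arrays 2 passed in NT1p14 with TBVp13. For these settings the counts over all probes in the pairs and their difference are not given here. Whether the panel counts followed the overall call rate was therefore not tested. Chosen after seeing the data, turned signs left 1 for the difference, and leaving out arrays 4 and 5 of NT1p14 with TBVp13 left 0 for it and 0 in that pair. Over all probes that setting called 97, 0 and 652 in the difference, NT1p14 with TBVp13 and NT1p12 with TBVp12, against 3423, 1931 and 47. The counts by sign with turned signs were also chosen after seeing the data. The causes were not tested. Each value compares NT1 and TBV on the same array. Arrays of different source pairs could not be matched to each other, because arrays carry numbers in order of accession only. Leaving out all whole numbers was tried where values were left. The whole numbers and the few independent pairs limit what a ratio near 0 or -1 can show.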
